A study of Mus musculus with 36 samples.

Results

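The genes described here make, use or recycle the methyl donor S-adenosylmethionine (SAM) in mouse liver, with Nnmt at their head. There are 8 of them among the 53715 genes of the deposited count table: Mat1a, Bhmt, Nnmt, Gnmt, Pemt, Gamt, Ahcy and Cbs. They were listed by their role in methyl group metabolism, and Nnmt was chosen by its measured level, which earlier results of these libraries showed to be lower on red tomato than on the control diet. The livers came from male C57BL/6 mice, 10 weeks old, that had eaten their diet for 6 weeks from an age of 4 weeks. The Control group ate the purified AIN93G diet, the Red group the same kind of diet with 10% red tomato powder, and the Tangerine group one with 10% tangerine tomato powder, with 12 livers in each. None of the groups carried an engineered allele or received another agent according to the labels, and each library was labelled with a mouse number of its own, though the labels put the group sizes at 11 to 12 mice. The study asked how tomato in the diet, and the kind of tomato, changed gene expression in the liver.

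SAM is the cell's main methyl donor, and the liver makes and uses much of the body's supply. Mat1a makes it from methionine, methyltransferases hand its methyl group to acceptors such as nicotinamide, glycine and phospholipid, and the S-adenosylhomocysteine left behind is split by Ahcy into adenosine and homocysteine. Homocysteine is then methylated back to methionine, in liver partly by Bhmt, or drawn off towards cysteine by Cbs.

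Cbs is the member whose transcript followed the circadian clock genes most steadily in these livers. It fell (slope -0.045) as a clock score, described below and high where Dbp was high, rose. The stretch upstream of its start is shown, with the E-box in capitals, and whether the E-box has a part in that slope was not tested. An E-box of this form, CACGTG, is the sequence that the clock activators CLOCK and BMAL1 are known to bind. The stretch lies on the minus strand of build GRCm38.p6 at chr17:31637239-31637455, 217 bases directly upstream of the annotated gene, and comes from the RefSeq promoter table for that build.
Cbs upstream: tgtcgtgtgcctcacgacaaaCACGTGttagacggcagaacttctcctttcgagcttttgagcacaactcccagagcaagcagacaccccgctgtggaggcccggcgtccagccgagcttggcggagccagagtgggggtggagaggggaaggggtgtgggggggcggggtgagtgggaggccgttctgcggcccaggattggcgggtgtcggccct
The E-box covers bases 229 to 224 before the RefSeq start of Cbs. CACGTG reads the same on both strands, and 2349 of 32851 promoter windows of 300 bases (7.15%) held it. The table held windows for Cbs, Ahcy, Gamt, Pemt, Bhmt and Gnmt, and among these the E-box occurred in the Cbs window only. There was no window for Nnmt or for Mat1a, the other member with a called slope on the clock score. The match describes these letters and does not show that a factor binds there.

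The libraries held 21290169 to 33810573 counts, and 14068 genes had enough counts to be tested. Hepatocyte markers such as Alb and Cps1 summed to between 89583 and 129360 CPM (counts scaled to a common library size) in every library. Red 186 stood apart in lymphocyte markers (64.2 CPM against at most 3.31 elsewhere) and adipocyte markers (30.6 against at most 7.66), Tangerine 216 in exocrine pancreas markers (10.9 against at most 0.297), and Tangerine 192 in cholangiocyte markers (111 CPM against at most 49.4 in the other diets). A clock score was formed from 10 core clock and clock output genes, Dbp and Arntl among them, with high values where Dbp was high. It averaged 0.83 ± 2.77 in Control, -2.45 ± 2.25 in Red and 1.62 ± 2.02 in Tangerine (SD, n = 12), so diet and clock state moved together in these samples. The hour of dissection was not given in the sources used here.

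Nnmt, which methylates nicotinamide and so uses SAM while removing a precursor of NAD, was lower in Red livers than in Control livers. Its level ran from 23.3 through a median of 29.1 to 49.6 CPM in Control. In Red it ran from 11.5 through 21.7 to 28.1 CPM. In Tangerine it ran from 21.6 through 26.8 to 39.7 CPM. All 12 Red livers were below the Control median and 10 were below the lowest Control liver, while 7 Control livers were above the highest Red liver. The Control and Red ranges overlapped from 23.3 to 28.1 CPM. Red 166 and Red 202 were the lowest, and Control 208 was the highest.

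The means were 32.6 ± 8.60 CPM in Control, 19.997 ± 5.24 in Red and 28.2 ± 5.71 in Tangerine (SD, n = 12). On the log2 scale Nnmt was 0.70 lower in Red than in Control (log2 fold change -0.70, SE 0.14), a change of -38.6%. Tangerine was 0.21 below Control (-0.21, SE 0.14) and 0.50 above Red (0.50, SE 0.14). Since Nnmt was chosen for its difference between Red and Control, and the other comparisons reuse those libraries, these values are a description and carry no test. Of the Tangerine livers, 11 were above the Red median and 4 above the highest Red liver. With the clock score in the model the Red difference was -0.64 (SE 0.16), and without Red 186 it was -0.67. Nnmt was at 14.0 CPM in Red 186, the library with the highest lymphocyte and adipocyte markers, and so lay in the lower part of its diet. Stellate cell and fibroblast markers, summed, had medians of 241 CPM in Control, 208 in Red and 240 in Tangerine, with ranges of 194 to 311, 168 to 305 and 196 to 460. Lrat, a defining stellate cell gene, was listed at 0 in every library. Zeros in these counts can go with gene overlap, as described below for Gnmt, so the 0 of Lrat is not read as absence. The part of the stellate cell and fibroblast markers in the Nnmt difference was not tested. In whole liver RNA, fewer cells of a type and less RNA per cell cannot be told apart.

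**Figure D1:**
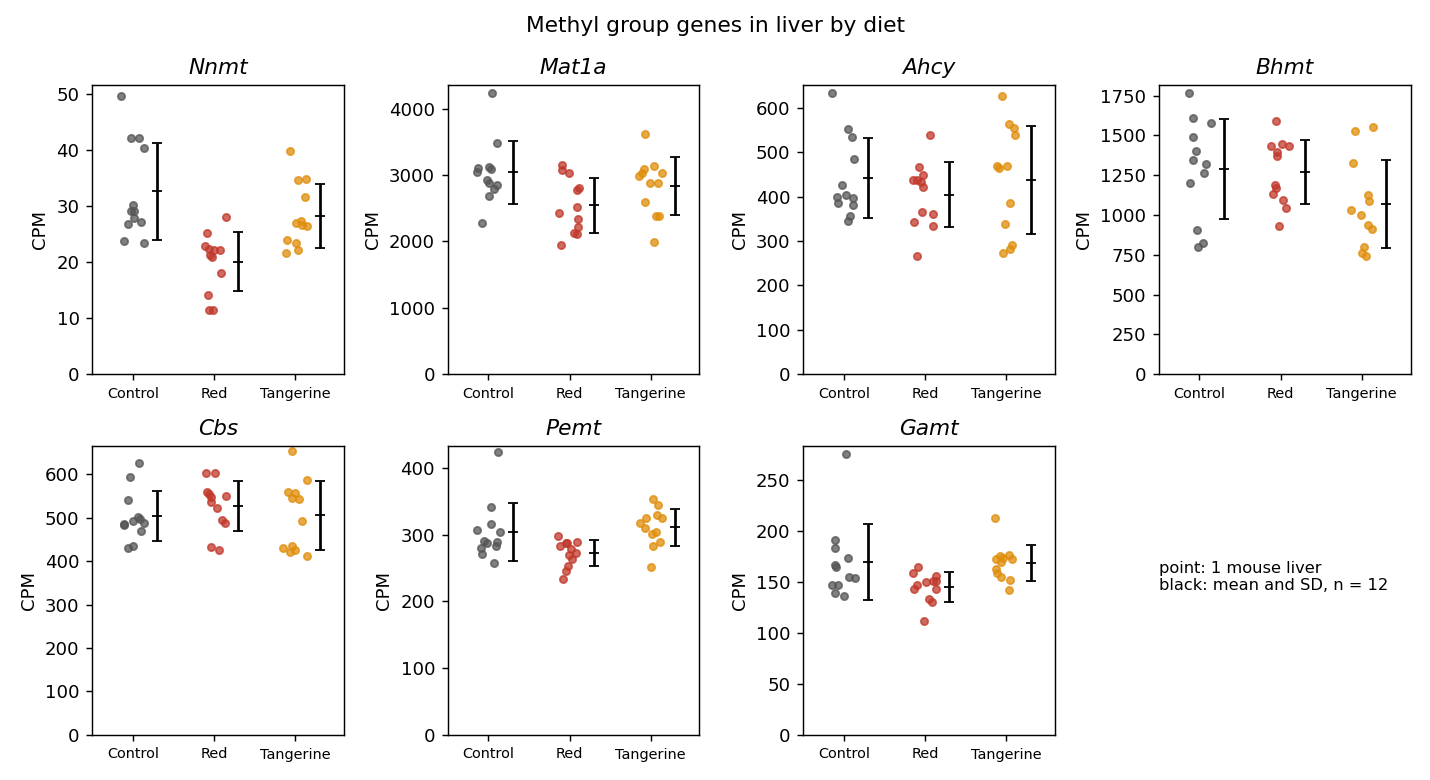
Level of each counted gene in CPM (vertical axis, from 0) in every liver, by diet (horizontal axis). Each point is 1 mouse and the black marks give mean and SD (n = 12). The Nnmt points of the Red diet reach 28.1 CPM at most, where those of Control reach 49.6. In the Pemt panel 9 Tangerine points, and in the Gamt panel 7, lie above every Red point.

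Among the enzymes that supply methyl groups, neither Mat1a nor Bhmt passed the test in any comparison of diets. Mat1a, the liver form of methionine adenosyltransferase, ranged from 2274 to 4245 CPM in Control (median 2989), from 1953 to 3154 in Red (median 2472) and from 1992 to 3617 in Tangerine (median 2934). Its ranges overlapped widely. The log2 fold change of Mat1a was -0.26 for Red against Control (SE 0.091, edgeR adjusted p = 0.194), -0.10 for Tangerine against Control (adjusted p = 1) and 0.16 for Tangerine against Red (adjusted p = 0.419). With limma-voom and sample weights the Red difference was -0.33 with an adjusted p of 0.0179, so its call depended on the tool.

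Bhmt, which moves a methyl group from betaine to homocysteine, spread over more than a doubling within Control. It ran from 801 to 1766 CPM in Control (median 1332), from 932 to 1592 in Red (median 1280) and from 745 to 1550 in Tangerine (median 1016). Control 245 and Control 240 were at the low end of their diet, close to the lowest Tangerine livers. The log2 fold change of Bhmt was -0.02 for Red against Control (SE 0.13, edgeR adjusted p = 0.959), -0.28 for Tangerine against Control (SE 0.13, adjusted p = 0.871) and -0.25 for Tangerine against Red (SE 0.13, adjusted p = 0.35). These differences did not exceed the spread between mice after adjustment. Of the exon bases of Bhmt, 226 (3.92%) also lie under the antisense gene Gm15622, and whether the counting used strand was not given in the sources used here.

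Gnmt, the glycine methyltransferase that takes up surplus SAM in hepatocytes, was listed at 0 in all 36 libraries and could not be tested. Its gene lies at chr17:46725664-46729168 on the minus strand, wholly inside the span of the long noncoding RNA gene Gm26904, at chr17:46471501-46825221 on the plus strand (GRCm38, GENCODE M21). All 17 protein-coding genes inside that span were at 0, among them Srf and Cul7, while Gm26904 itself held 92 to 176 counts per library. Over the genome, 1237 of 1246 protein-coding genes inside another gene's span (99.3%) were at 0, against 3160 of 20644 that were not (15.3%). The share was 99.8% for genes inside a gene of the same strand and 99.0% for genes inside a gene of the other strand. The 0 of Gnmt therefore cannot be read as absence of expression, and how reads over overlapping genes were counted was not given in the sources used here.

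Pemt and Gamt, the other large users of SAM in liver, both had their lowest median in Red, but neither passed the edgeR test. Pemt, which methylates phosphatidylethanolamine to phosphatidylcholine, ranged from 258 to 424 CPM in Control (median 289.7), from 234 to 299 in Red (median 276) and from 252 to 354 in Tangerine (median 313). Gamt, which makes creatine from guanidinoacetate, ranged from 136 to 275 CPM in Control (median 159.9), from 112 to 165 in Red (median 149) and from 142 to 213 in Tangerine (median 171). Control 137 was the highest Control liver for both genes and stood well above the next one. Of the 12 Tangerine livers, 9 were above the highest Red liver for Pemt and 7 for Gamt. The log2 fold change of Pemt was -0.16 for Red against Control (SE 0.062, edgeR adjusted p = 0.242), 0.03 for Tangerine against Control (adjusted p = 1) and 0.19 for Tangerine against Red (SE 0.062, adjusted p = 0.0979). Without Control 137 the last of these was 0.20 with an adjusted p of 0.0343, and without Tangerine 226, the lowest Tangerine liver for Pemt, it was 0.22 with an adjusted p of 0.0454. Pemt also passed there with limma-voom (0.16, adjusted p = 0.038) and when only the 2 diets were fitted (0.19, adjusted p = 0.0462), so its call depended on the fit. The log2 fold change of Gamt was -0.22 for Red against Control (SE 0.082, edgeR adjusted p = 0.219), -0.01 for Tangerine against Control (adjusted p = 1) and 0.22 for Tangerine against Red (SE 0.082, adjusted p = 0.182). Without Control 137 the Gamt difference between Red and Control shrank to -0.14.

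Ahcy and Cbs, which handle the products of methyl transfer, passed the test in no comparison of diets. Ahcy, the hydrolase of S-adenosylhomocysteine, ranged from 346 to 634 CPM in Control (median 402), from 266 to 539.7 in Red (median 428) and from 272 to 626 in Tangerine (median 466). Red 186 was lowest of all for Ahcy, followed by Tangerine 192, 197 and 195. Cbs, the cystathionine beta-synthase that commits homocysteine to cysteine, ranged from 430.0 to 627 CPM in Control (median 490.2), from 425 to 603 in Red (median 543) and from 413 to 654 in Tangerine (median 518). For Red against Control the log2 fold change was -0.13 for Ahcy (SE 0.13, edgeR adjusted p = 0.705) and 0.06 for Cbs (SE 0.076, adjusted p = 0.755). For Tangerine against Red it was 0.11 for Ahcy (adjusted p = 0.716) and -0.06 for Cbs (adjusted p = 0.751). Both signs turned with the clock score in the model. Without Control 137 the Ahcy value for Red against Control was -0.071, without Red 186 it was -0.083, and leaving out 1 library moved Tangerine against Red between 0.057 and 0.16. Of the exon bases of Ahcy, 133 (4.74%) lie under the antisense gene Gm45609.

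Counted together, 1 of 7 tested members passed an adjusted p of 0.05 for Red against Control, namely Nnmt, where 0.149% of all genes did, and nothing is read from this since Nnmt was chosen there. Of the other 6 members 3 (Mat1a, Pemt and Gamt) had an unadjusted p under 0.05 in that comparison, against 13.3% of all genes. For Tangerine against Control 0 of 7 passed in edgeR, in DESeq2 and in limma-voom, against 0.0142% of all genes, and 1 (Bhmt) had an unadjusted p under 0.05, against 5.47%. For Tangerine against Red 0 of 7 passed in edgeR against 1.71% of all genes. Of the 6 members other than Nnmt, 2 (Pemt and Gamt) had an unadjusted p under 0.05 there, against 15.1% of all genes. Nnmt, whose values carry no test, was the 1 member past the adjusted threshold in that comparison in DESeq2, and limma-voom added Pemt. Leaving Nnmt aside, Red against Control gave fold changes below 0 for 5 of 6 members, the exception being Cbs, where 51.5% of all genes were below 0. The median of the 6 was -0.14 against -0.0047 for all genes. The 3 comparisons share libraries, so their values are set side by side and are not independent of each other.

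**Figure D2:**
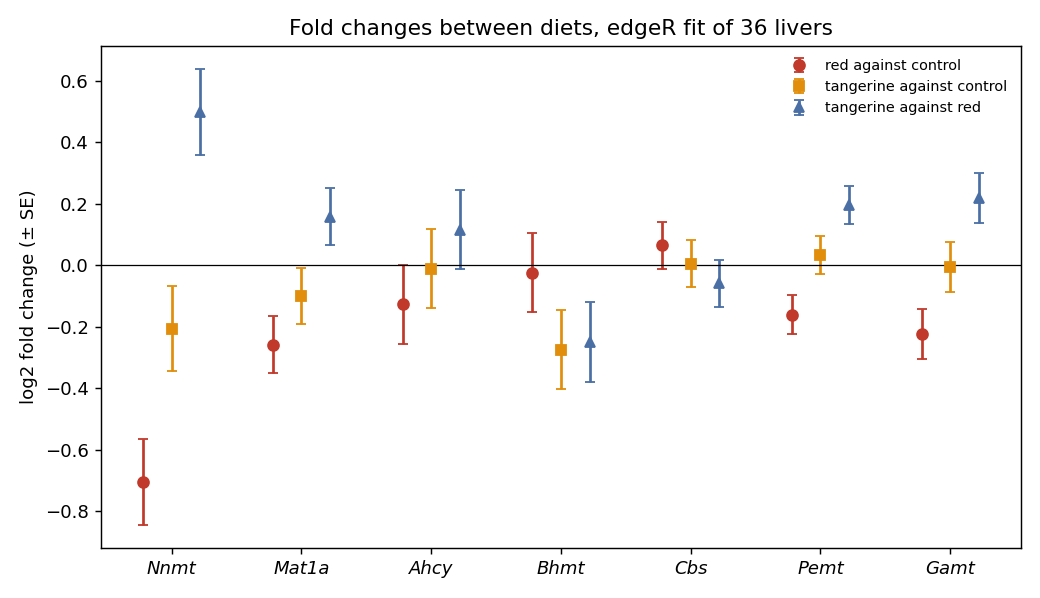
Log2 fold change with its SE (vertical axis) for the 7 counted genes (horizontal axis) in the 3 comparisons of diets, from the edgeR fit of 36 livers. Nnmt lies at -0.70 in the red comparison with control and at 0.50 in that of tangerine with red, and the other genes lie between -0.28 and 0.22.

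Per length of transcript the members spanned a wide range. Dividing mean CPM by the exon length of each gene gave 809 CPM per kilobase for Mat1a, 210 for Bhmt, 153 for Ahcy, 141 for Pemt, 112 for Gamt, 68.4 for Cbs and 17.1 for Nnmt. Nnmt was thus the least abundant counted member per length, and it stayed below Cbs in 36 of 36 libraries. Bhmt exceeded Ahcy in 31 of 36 and Ahcy exceeded Pemt in 22 of 36, so the order of the last pair did not hold beyond the spread between livers. The other neighbours kept their order in all 36 libraries. Within diets Nnmt varied most, with a log2 SD of 0.36, followed by Bhmt and Ahcy at 0.33, Mat1a at 0.23, Gamt at 0.20, Cbs at 0.19 and Pemt at 0.15. The lengths are of all annotated exons together, so a gene read mainly from a short transcript is placed too low.

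Among livers of the same diet, Mat1a rose and Cbs fell with the clock score. The slope of Cbs was -0.045 on the log2 scale per unit of the score (SE 0.012, edgeR adjusted p = 0.0127), and that of Mat1a was 0.048 (SE 0.015, adjusted p = 0.0393). These were 2 of 7 members, where 6.13% of all genes had a called slope (3.37% upward and 2.76% downward). Ahcy had a slope of 0.054 (SE 0.022, adjusted p = 0.146), and Nnmt one of 0.024 (SE 0.024, adjusted p = 0.662). Bhmt had -0.038 (adjusted p = 0.4), and Pemt and Gamt had 0.017 each (adjusted p = 0.431 and 0.592). The sign of the Cbs slope was the same in each diet alone, at -0.034 in Control, -0.025 in Red and -0.092 in Tangerine, although Cbs did not pass within any single diet (smallest edgeR adjusted p = 0.0583, in Tangerine). The sign of the Mat1a slope was also the same in each diet, at 0.045, 0.071 and 0.024.

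The Cbs call held when any of the 36 libraries was left out, with adjusted p from 0.00285 to 0.0308. The Mat1a call was lost without any of 13 libraries: Control 159, 182 or 188, Red 156, 170, 177, 199, 202 or 204, and Tangerine 192, 195, 215 or 216, with adjusted p up to 0.112.

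**Figure D3:**
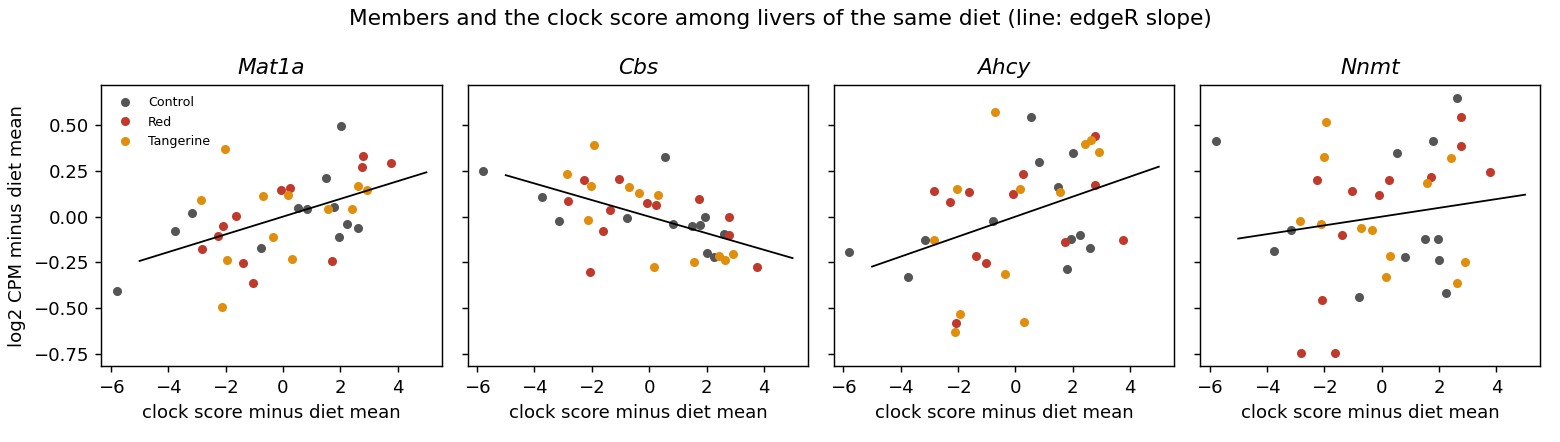
Log2 CPM of Mat1a, Cbs, Ahcy and Nnmt (vertical axis) against the clock score (horizontal axis), both after subtracting the mean of each diet. Each point is 1 liver and the line is the edgeR slope. The slope is 0.048 for Mat1a and -0.045 for Cbs, and the Nnmt points scatter widely around 0.024.

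Pairs of members were then compared in the same way, with the log2 CPM of each in turn as the predictor within diets, giving 42 slopes for 21 pairs. Pemt and Gamt rose and fell together: Gamt had a slope of 1.06 on Pemt (SE 0.15, edgeR adjusted p = 2.47e-06), where 35.9% of all genes had a called slope on Pemt. Mat1a and Ahcy also did, with a slope of Ahcy on Mat1a of 0.95 (SE 0.19, adjusted p = 0.00274), where 7.07% of all genes were called. Both pairs were called in the reverse direction too, at 0.56 for Pemt on Gamt (adjusted p = 0.000287) and 0.45 for Mat1a on Ahcy (adjusted p = 0.00131), where 22.9% and 14.9% of all genes were called. Cbs on Pemt was called one way, with a slope of 0.51 (adjusted p = 0.0465). Genes share each library's depth and composition, so the share of all genes called is the scale for these slopes.

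Control 137 was the highest Control liver for 5 members: Pemt, Gamt, Ahcy, Cbs and Bhmt. Without it the slope of Gamt on Pemt was 0.81 (adjusted p = 0.00224), and the slope of Ahcy on Mat1a was 0.92 (adjusted p = 0.00148). Both slopes passed the test with any 1 of the 36 libraries left out. Within single diets Gamt on Pemt passed in Control (1.25, edgeR adjusted p = 0.00509), which holds Control 137, and missed the threshold in Red (0.90, adjusted p = 0.128) and Tangerine (0.81, adjusted p = 0.299). Ahcy on Mat1a passed in Tangerine (1.53, adjusted p = 0.0413) and missed it in Control (0.72, adjusted p = 0.934) and Red (0.64, adjusted p = 0.338).

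**Figure D4:**
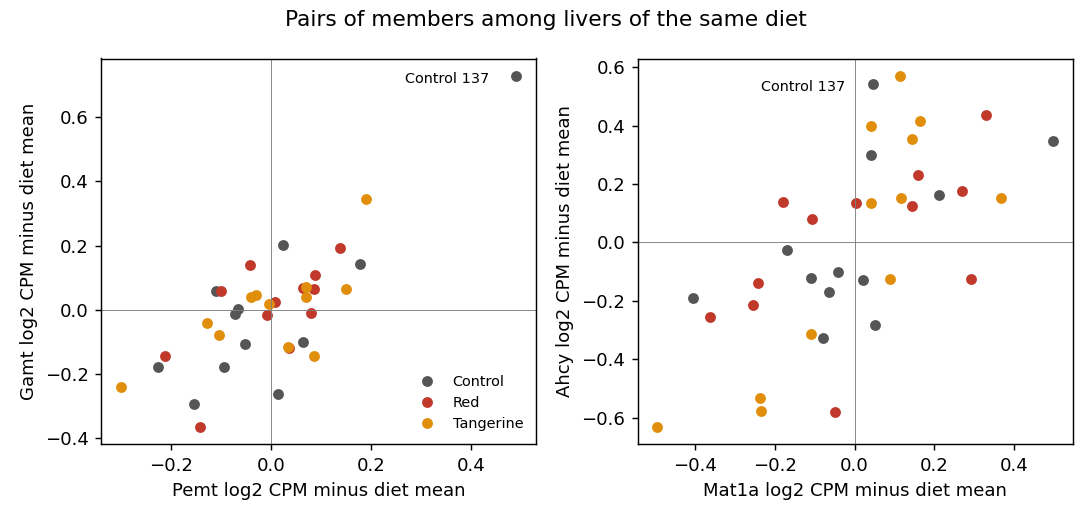
Log2 CPM of Gamt against Pemt and of Ahcy against Mat1a, each after subtracting the mean of its diet, with 1 point per liver. Control 137 lies far at the upper right for Pemt and Gamt, and the other livers follow the same upward direction, with a slope of 0.81 without it.

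No other member passed the test of a slope on Nnmt within diets. With the log2 CPM of Nnmt as predictor 0 of 6 members passed in edgeR, in DESeq2 and in limma-voom, where 0.00711% of all genes did in edgeR. At an unadjusted p under 0.05 in edgeR there were 0 of 6, against 7.46% of all genes. With so few genes passing at all, nothing particular to the members is read from these counts. Cbs came nearest, with a slope of 0.17 (SE 0.087, adjusted p = 0.643). Ranked by Pearson correlation with Nnmt over the 36 libraries after subtracting diet means, among 10967 genes, the most similar were Rcan1, a calcineurin regulator (r = 0.68), the immunoproteasome subunit Psmb8 (0.57), fumarase Fh1 (0.55), the heme carrier hemopexin Hpx (0.54) and mannose phosphate isomerase Mpi (0.53). The most opposite were Ggnbp2 (-0.55), Tigd2 (-0.55), Ppp1ccb (-0.54), the carboxylesterase Ces1g (-0.53) and Tmem167b (-0.52). These are the extremes of a ranking and are given as a description. Rcan1 was the 1 gene with a called slope on Nnmt (adjusted p = 0.0128), and it lost the call without Control 208 (0.22) or Red 202 (0.0584), with limma-voom (0.0535), and within Control (0.29), Red (0.856) or Tangerine (1) alone.

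The genes around the members were counted from 8 lists covering the methionine cycle, transsulfuration, folate, choline and betaine, small molecule methyltransferases, NAD, polyamines, and DNA and protein methyltransferases. Of 136 genes, 128 could be tested. For Red against Control 1 of 128 passed (0.781%, against 0.149% of all genes), and it was As3mt, the arsenite methyltransferase, another user of SAM. At an unadjusted p under 0.05 there were 35 of 128 (27.3%, against 13.3% of all genes). As3mt ran from 29.3 to 45.8 CPM in Control (median 35.7) and from 21.5 to 34.5 in Red (median 28.4), with all 12 Red livers below the Control median (log2 fold change -0.35, edgeR adjusted p = 0.0271). Its call was lost without any of Control 122, 159 or 182 or Red 133, 156, 157, 166 or 203. For Tangerine against Control 0 of 128 passed in edgeR, DESeq2 and limma-voom, where 0.0142% of all genes passed in edgeR, so nothing is read from this count. At an unadjusted p under 0.05 there were 6 (4.69%), against 5.47% of all genes. The NAD list, the closest to the reaction of Nnmt, had 0 of 23 called in edgeR in each of the 3 comparisons. Of all genes 0.149%, 0.0142% and 1.71% were called for Red against Control, Tangerine against Control and Tangerine against Red. With shares this small, nothing is read from the NAD counts. At an unadjusted p under 0.05 there were 6, 0 and 6 of the 23 in the same order, against 13.3%, 5.47% and 15.1% of all genes.

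For Tangerine against Red 11 of the 128 passed (8.59%, against 1.71% of all genes), 4 higher and 7 lower in Tangerine, where 0.732% of all genes were higher and 0.981% lower. In choline use, the choline kinase Chka was at 12.7 to 41.0 CPM in Tangerine (median 23.7) and at 28.0 to 93.2 in Red (median 55.0), a log2 difference of -1.15 (SE 0.24, edgeR adjusted p = 0.0146). All 12 Tangerine livers were below the Red median for Chka, although the ranges overlapped. The folate polyglutamate ligase Fpgs was lower as well (-0.37, adjusted p = 0.0313), and the ethanolamine kinase Etnk2 was higher (0.47, adjusted p = 0.0271).

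In the methionine cycle and its exits, adenosine kinase Adk was higher in Tangerine than in Red (0.16, edgeR adjusted p = 0.0251), and Ahcyl2, a relative of Ahcy, was lower (-0.29, adjusted p = 0.0289). Gclc, the catalytic subunit of glutamate cysteine ligase for glutathione, was lower (-0.43, adjusted p = 0.0359). Azin1, an antizyme inhibitor of the polyamine route, was higher (0.46, adjusted p = 0.0366), and so was Inmt, which methylates indoleamines (0.39, adjusted p = 0.0476). The DNA methyltransferase Dnmt3b was lower (-1.04, adjusted p = 0.0237), at medians of 2.17 CPM in Tangerine and 4.61 in Red, and the histone methyltransferase Dot1l was lower (-0.32, adjusted p = 0.0338).

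**Figure D5:**
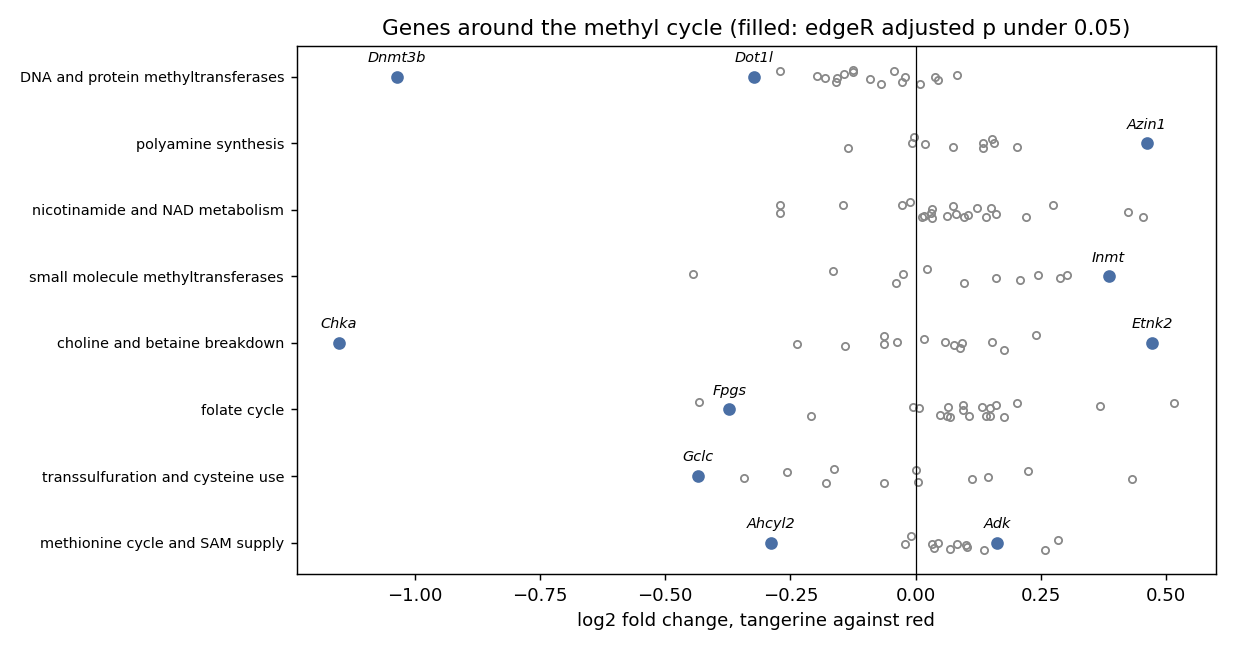
Log2 fold change of tangerine against red (horizontal axis) for 127 of the 128 tested genes of 8 lists around the methyl cycle (vertical axis), with 1 point per gene. Filled points passed an edgeR adjusted p of 0.05, and Chka (-1.15) and Dnmt3b (-1.04) lie farthest to the left among those drawn.

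The clock score moved with these genes. Its slope within diets was called for 24 of the 128 (18.8%, against 6.13% of all genes), and for 7 of the 11 that differed between Tangerine and Red, among them Chka (-0.24), Dnmt3b (-0.24), Etnk2 (0.09), Gclc (-0.07), Inmt (0.07) and Fpgs (-0.06). The other 4, Adk, Ahcyl2, Azin1 and Dot1l, had no called slope. With the score in the model none of these 11 passed, the smallest edgeR adjusted p among them being 0.215 for Adk. The log2 fold change went to -0.20 for Chka but stayed at -0.34 for Dot1l and 0.18 for Adk. Since the score itself differed between the diets, diet and clock state cannot be told apart for these genes. Leaving out 1 library reduced the 11 to 6 or fewer for Red 133, 156, 166, 175, 199 or 202 and Tangerine 198, 215, 216, 217 or 242, down to 3 without Tangerine 216, the library with pancreas markers. With mouse number as a covariate 1 of the 128 passed, and with no filter on low counts 4 genes of the lists did. All genes called fell as well, from 241 to 32 with mouse number, 136 with no filter and 88 without Tangerine 216.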

How the data were processed

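Whole liver RNA was sequenced from 36 mice with a directional library kit, per the labels' protocols. The deposited table holds raw read counts per gene. The submitters' processing notes name FastQC, Trimmomatic, edgeR and build GRCm38.p6; the aligner, counter, annotation and strand setting are not given in the sources used here. Symbols and positions came from GENCODE M21, where 53620 of 53715 identifiers had a symbol. Genes were filtered with filterByExpr, scaled by TMM and fitted with the edgeR 4.0.16 quasi-likelihood test (R 4.3.3) over all 36 libraries with diet as the factor. Benjamini-Hochberg adjustment ran over all 14068 tested genes, with a threshold of 0.05. CPM values use TMM library sizes. The clock score is the first principal component of log2 CPM of 10 clock genes (85.3% of their variance). Slopes add the score, or a gene's log2 CPM, to the diet term. DESeq2 1.42.0 and limma 3.58.1 (voom) were alternatives. The fit was also run on counts simulated for each gene on its own, and no result here rests on that run.

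The members, the lists and the clock score were chosen with earlier results of these data known. Named genes are the members, up to 4 called genes per list with the smallest p, and the 5 genes most and least correlated with Nnmt. A called gene of the lists enters the counts and is otherwise not reported here. Srf and Cul7, named inside Gm26904, were chosen after their values were seen. No libraries looked like a repeat of another: the smallest chi-square per degree of freedom between libraries was 13.7 within diets. Nothing in the labels says how mice were caged, so p-values measure the spread between these mice.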

Additional observations from a re-analysis of the deposited data

How the results depend on the processing

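No paired analysis was possible because no mouse number occurs in more than 1 diet. Of 924 recomputed member fold changes, 870 kept their direction and side of the threshold, 41 changed sign, 12 passed it only under the alternative and 1 (Nnmt with the clock score) no longer passed. The cause of these changes was not tested. Members called for Red against Control were 0 with the clock score and 2 with limma-voom, where 3 and 1504 of all genes were called. For Tangerine against Red members called were 1 with DESeq2, 2 with limma-voom and 2 with only the 2 diets compared. Of all genes 391, 746 and 342 were called there. Nnmt, whose values carry no test, was in each of the member counts above 0. Members with a called clock slope were 0 in each diet alone, 1 with no low-count filter and 1 without both Red 186 and Tangerine 216, an alternative added after seeing the data. How many of all genes had a called clock slope under these alternatives was not counted, so nothing about the members is read from these counts. Companion genes called for Red against Control were 0 with the clock score, 5 with DESeq2, 28 with limma-voom and 2 with only 2 diets. All genes called were 3, 164, 1504 and 30 in the same order. For Tangerine against Red companion genes called were 0 with the clock score, 22 with limma-voom, 1 with mouse number as covariate, 4 with no filter and 3 without both libraries. All genes called were 0, 746, 32, 136 and 86 in that order. Leaving out 1 library gave 0 to 2 members for Tangerine against Red, 1 to 2 members with a clock slope, and 0 to 2 and 3 to 14 companion genes for Red against Control and Tangerine against Red.

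With the clock score Ahcy turned to 0.052 (Red against Control) and -0.12 (Tangerine against Red), Cbs to -0.082 and 0.12, and Mat1a to -0.031 (Tangerine against Red). Bhmt for Red against Control was 0.0205 with mouse number. Gamt for Tangerine against Control was 0.084 with limma-voom, 0.016 with mouse number, 0.0037 with no filter and 0.00097 with only 2 diets. The Nnmt clock slope was -0.0019 in Control alone, -0.048 in Tangerine alone and 0.13 in Red alone (adjusted p = 0.187), where all diets gave 0.024. Leaving out 1 library moved Tangerine against Control between -0.070 and 0.044 for Ahcy, -0.035 and 0.038 for Cbs and -0.041 and 0.079 for Gamt, and Bhmt for Red against Control between -0.074 and 0.023. All genes called for Red against Control numbered 21, but 164 with DESeq2, 1504 with limma-voom and 3 with the clock score; for Tangerine against Red 241, but 746 with limma-voom, 391 with DESeq2, 136 with no filter, 32 with mouse number and 0 with the clock score. Leaving out 1 library moved these counts between 13 (Red 166) and 128 (Control 189), and between 88 (Tangerine 216) and 303 (Tangerine 226), so the shares of all genes called move with them.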

Other observations

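Nampt, the rate-limiting enzyme of the salvage of nicotinamide to NAD, rose with the clock score within diets, while the next enzymes of that route did not pass the test. Nampt had a slope of 0.13 on the log2 scale per unit of the score (edgeR adjusted p = 5.07e-06), and the nicotinamide riboside kinase Nmrk1 had 0.13 (adjusted p = 2.3e-05). Nmnat1 and Nmnat3, which complete the salvage, had slopes of -0.00076 (adjusted p = 0.978) and 0.0016 (adjusted p = 0.974). Nampt and Nmrk1 were among 4 of 23 tested NAD genes with a called slope, all upward, the others being Nadk (0.03, adjusted p = 0.0154) and Sirt3 (0.04, adjusted p = 0.04), where 6.13% of all genes were called. Nampt ran from 32.8 to 82.2 CPM in Control (median 54.2), from 29.2 to 66.6 in Red (median 40.6) and from 38.1 to 97.8 in Tangerine (median 50.9), and its difference between Red and Control was -0.37 (adjusted p = 0.328). In the methionine and glycine routes, Mtrr, the reductase that reactivates methionine synthase, rose with the score (0.07, adjusted p = 2.04e-05), and the glycine decarboxylase Gldc fell (-0.11, adjusted p = 5.07e-06). Of the 14 tested genes of the methionine cycle list 2 had a called slope, 1 upward and 1 downward. Over the 8 lists together it was 24 of 128 (18.8%), against 6.13% of all genes. The 8 genes named in this paragraph were chosen after their values were seen.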
